A study of Homo sapiens with 21 samples.

Results

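The 33 genes described here are known targets of p53 that act in cell cycle arrest, DNA repair, metabolism and feedback control. They were taken by gene symbol from the 28008 genes that both count tables list, and all 33 were found. Gene expression had been measured by mRNA sequencing in 21 libraries of leukaemia cell lines, 3 libraries in each of 7 groups and in 2 sequencing batches. OCI-AML3 is an acute myeloid leukaemia line, and K562 is an erythroleukaemia line.

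The cells labelled resistant were OCI-AML3 with the genotype entry Res and the treatment entry StAMP, a code that the labels do not spell out in a study of stapled peptides. They came as a first biological replicate, called resistant 1 here, in both batches, and as a second one, resistant 2, in batch 2. Vehicle cells were OCI-AML3 with the genotype entry WT and the treatment entry DMSO, in both batches. K562 parental and OCI-AML3 parental cells, both entered as WT with no treatment, were sequenced in batch 1. The sources used here do not say how the resistant cells were selected or whether they are 1 clone. Nothing in the labels says that replicates came from separate cultures, so p-values measure only the spread between these libraries, which may be technical.

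p53 is a transcription factor that cells stabilise after DNA damage and other stress. It binds a site made of a pair of 10-base repeats near its targets and raises their transcription, and among the products are the cell cycle inhibitor p21, repair proteins and MDM2, the ligase that marks p53 for destruction and so closes a feedback loop. Most of these genes also have other activators, so their transcripts can be present where p53 is missing.

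The libraries labelled resistant did not look like OCI-AML3. Across 10767 genes, resistant 1 of batch 1 had Pearson correlations of 0.978 to 0.980 with K562 and of 0.511 to 0.514 with vehicle. In batch 2, the correlations of resistant 1 were 0.910 to 0.940 with K562 and 0.547 to 0.570 with vehicle, and those of resistant 2 were 0.900 to 0.930 with K562 and 0.548 to 0.566 with vehicle. K562 was sequenced in batch 1 only, so these K562 values run across batches, while the vehicle values lie within batch 2. Between batch 1 and batch 2, resistant 1 correlated with itself at 0.940 to 0.963 and vehicle with itself at 0.949 to 0.961. The summed level of 14 erythroid and K562 markers was 4926 to 5181 CPM (the usual unit of counts scaled to library size, here with TMM factors over the 21 libraries) in resistant 1 of batch 1, 1985 to 2141 CPM in resistant 1 of batch 2, 1212 to 1794 CPM in resistant 2 and 4891 to 5109 CPM in K562, against 26.6 to 28.6 and 14.7 to 20.3 CPM in the vehicle libraries of batch 1 and batch 2 and 17.9 to 20.9 CPM in OCI-AML3 parental. None of these markers was at 0 in a resistant group, while HBZ, GYPB, RHAG, ALAS2 and HEMGN were at 0 in both vehicle groups. The 14 myeloid markers summed to 132 to 133 CPM in resistant 1 of batch 1, 238 to 280 CPM in resistant 1 of batch 2, 197 to 218 CPM in resistant 2 and 75.5 to 80.9 CPM in K562, against 2188 to 2241 and 2277 to 2414 CPM in vehicle of batch 1 and batch 2 and 2405 to 2458 CPM in OCI-AML3 parental. HOXA9 was at 0 in all 3 resistant groups and in K562, HOXA10 in the 3 resistant groups, IRF8 and ELANE in the resistant groups of batch 2, and MPO in K562. Not all myeloid markers fell. In each comparison of resistant with vehicle, 13 of the 14 were called lower and 1 higher (edgeR, adjusted p under 0.05). Over all genes, 35.8% to 42.1% were called lower and 39.9% to 44.0% higher. In K562 against OCI-AML3 parental, 13 were lower, 0 higher and 1 not called (42.5% lower over all genes). Lymphocyte markers, 5 in number, summed to 4.76 to 19.7 CPM over the libraries labelled resistant and 10.1 to 11.6 CPM in K562, against 0 to 0.528 CPM in vehicle and parental libraries. The 3 fibroblast markers summed to 14.1 to 29.4 CPM in resistant 2 and 23.3 to 25.7 CPM in K562. They summed to 6.21 to 6.43 CPM in resistant 1 of batch 1 and 1.36 to 3.35 CPM in resistant 1 of batch 2. Vehicle had 2.46 to 3.385 CPM in batch 1 and 0.0466 to 0.172 CPM in batch 2, and OCI-AML3 parental 3.41 to 4.42 CPM. All comparisons of resistant with vehicle below rest wholly on these libraries, which go against their OCI-AML3 label, so no value without them can be given, and resistant is used below as the name on the label. The part of cell identity in them was not tested, and resistance and line cannot be told apart here. In such bulk libraries, fewer cells of a type and less RNA per cell cannot be told apart either. Total counts per library were 14066821 to 21091646 in batch 1 and 30719771 to 51262668 in batch 2.

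Sequence matches to the consensus of the p53 binding site were looked for within 2500 bases on either side of the RefSeq start of each gene (GRCh38.p14). The site is 20 bases long, reads alike on both strands, and was allowed up to 2 mismatches outside the core C and G of each repeat. Of the 33 genes, 27 had a start in the RefSeq table. A match was found for 11 of these 27 (40.7%), against 1106 of 27195 genes with such a start (4.07%). With no mismatch allowed it was found for 2 of the 27, PLK2 and ZMAT3 (7.41%), against 29 of all genes (0.107%). A match is a description and not evidence of binding, and no match says only that these letters are not in this window. The other genes with a match were CDKN1A, MDM2, CCNG1, DDB2, AEN, BTG2, CDIP1, GDF15 and SPATA18. The 6 printed here belong to genes whose values carry the results below, and the capitals mark the 20-base match, read 5′ to 3′ on the strand of the gene.
CDKN1A: gtcagGAACATGTCCCAACATGTTGagctc
MDM2: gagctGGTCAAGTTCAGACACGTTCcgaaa
PLK2: atgagAAACATGCCTGGACTTGCCCtgcac
DDB2: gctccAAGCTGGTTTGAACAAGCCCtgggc
ZMAT3: tcataAAACAAGTCCAGACATGCCTaggca
GDF15: attgcCATCTTGCCCAGACTTGTCTcgaac

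The CDKN1A match (chr6:36676444-36676473, plus strand) has 2 mismatches and its centre at −2255 bases from the RefSeq start, where a minus sign means before the start. The GENCODE span of the gene, which holds longer transcripts, begins at 36676460, inside it. The MDM2 match (chr12:68808918-68808947, plus strand, 2 mismatches) lies 761 bases after the start and within the gene. The PLK2 match (chr5:58462269-58462298, minus strand) lies at −2198 bases, and that of ZMAT3 (chr3:179070183-179070212, minus strand) lies 1611 bases after the start. The DDB2 match (chr11:47214964-47214993, plus strand, 1 mismatch) lies 525 bases after the start, and that of GDF15 (chr19:18385303-18385332, plus strand, 2 mismatches) lies at −840 bases. These 6 genes took different courses across the groups: PLK2 and DDB2 were lower in all 3 resistant groups, GDF15 was higher in all 3, MDM2 was modestly lower, ZMAT3 hardly moved, and the direction of CDKN1A depended on the batch and the replicate.

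**Figure D1:**
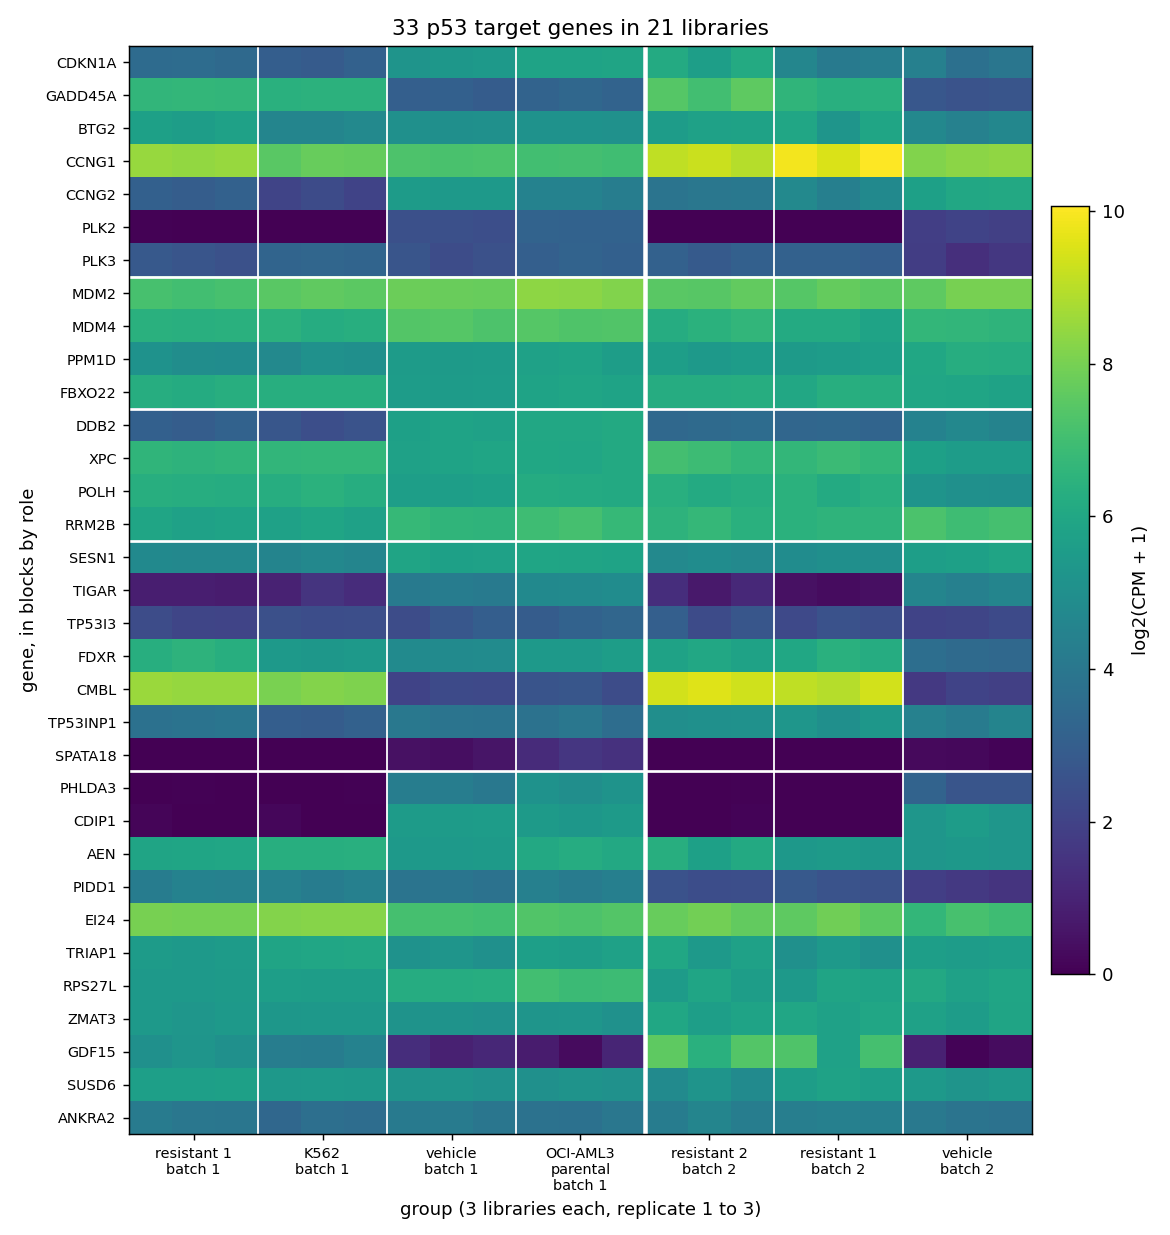
Levels of the 33 p53 target genes (rows, in blocks by role from arrest genes at the top to death, growth and other genes at the bottom) in 21 libraries (columns, 3 for each group, with K562 and parental from batch 1), as log2(CPM + 1). PLK2, SPATA18, PHLDA3 and CDIP1 are dark in every resistant and K562 column, and GADD45A, GDF15 and CMBL are brighter there than in vehicle and parental columns. SPATA18 is dark in vehicle and parental columns too, at 1.997 CPM or less in every library. Colours are to be read along a row, since CPM are not divided by gene length.

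The comparison of resistant with vehicle cells asks how the target genes stood in cells labelled resistant to StAMP. In batch 1 the set split evenly: 15 of the 33 genes were called higher in resistant 1, 15 lower and 3 were not called. All adjusted p-values are those of quasi-likelihood tests in edgeR unless another tool is named, adjusted over all genes tested by the Benjamini-Hochberg method, and a gene is called at an adjusted p under 0.05. Among all 14505 genes tested there, 44.0% were called higher and 42.1% lower, so the counts were near the background. The median log2 fold change over the 33 genes was −0.09, and 0.02 over all genes. In batch 2, of 32 genes tested, 15 were called higher and 12 lower in resistant 1 (background 39.9% and 35.8%), and 17 higher and 11 lower in resistant 2 (background 40.2% and 35.9%). SPATA18 was too low there to be tested. The median was 0.28 in resistant 1 and 0.41 in resistant 2, against 0.07 over all genes in each. Both comparisons of batch 2 share the same 3 vehicle libraries. Called in the same direction in all 3 comparisons were 11 higher and 10 lower of the 32 genes tested in each (background 31.0% and 29.8%). With a log2 fold change of at least 1 in size in all 3 and libraries that did not overlap between groups, 4 were higher, namely GADD45A, GDF15, FDXR and CMBL, and 6 lower, namely DDB2, PHLDA3, CCNG2, PLK2, TIGAR and CDIP1 (background 18.6% and 16.1%). With the genes at 0 to 3 counts set at their bounds, the medians stayed at −0.09, 0.28 and 0.41. These genes lay below the median either way, so it could not move.

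**Figure D2:**
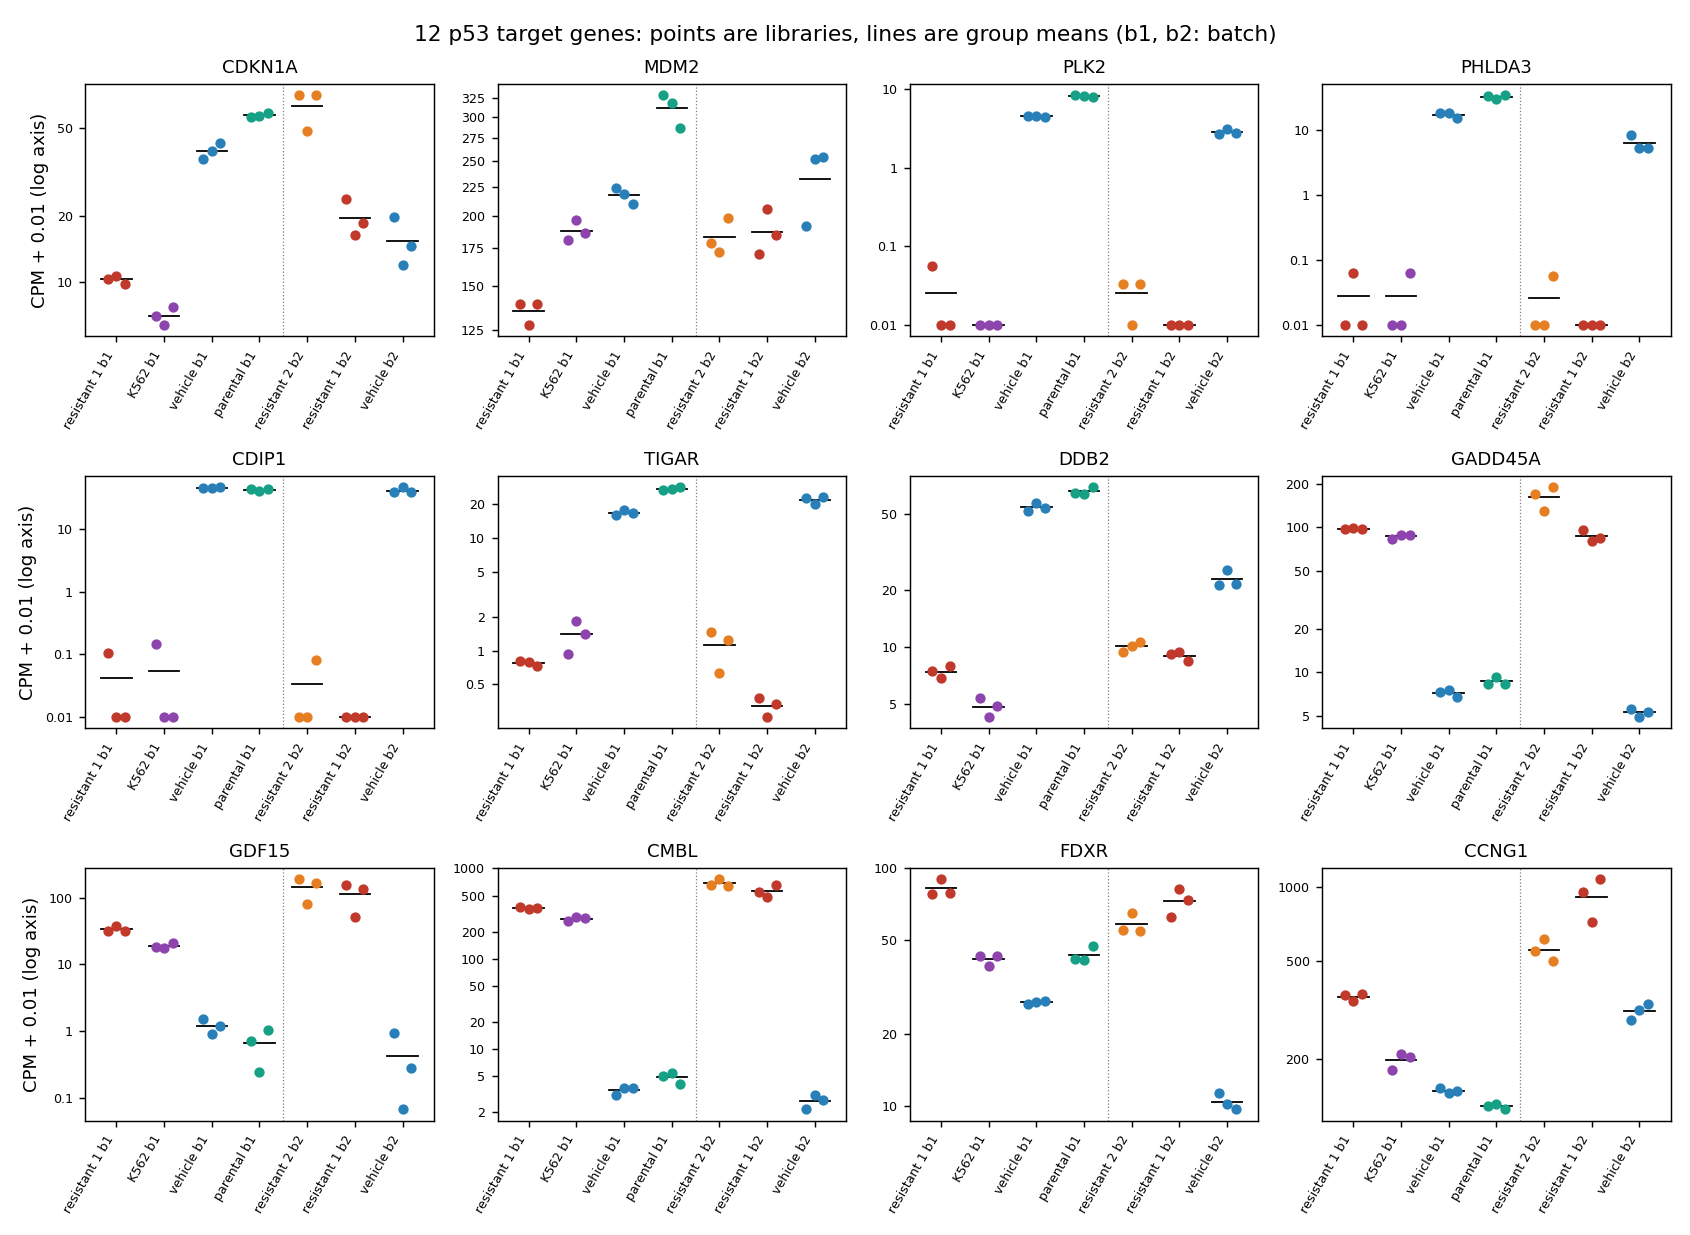
CPM + 0.01 (log axes, scaled over the 21 libraries) of 12 p53 target genes. Each point is a library, each line the mean of a group, and the dotted line parts batch 1 (left) from batch 2 (right). PLK2, PHLDA3 and CDIP1 sit at or near 0 in the resistant and K562 libraries, GADD45A, GDF15 and CMBL sit far above vehicle there, and CDKN1A lies highest in resistant 2 and in OCI-AML3 parental libraries.

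The arrest genes went both ways. CDKN1A encodes p21, the inhibitor of cyclin-dependent kinases that carries out much of the arrest by p53, and lies on chromosome 6 from 36676460 to 36687337 (hg38, GENCODE). In batch 1 it read 10.3, 10.7 and 9.77 CPM in resistant 1 and 36.1, 39.4 and 42.9 CPM in vehicle, lower in all resistant libraries, by −1.99 ± 0.08 (SE) on the log2 scale (adjusted p = 1.5462e-18). CDKN1A in batch 2 read 23.8, 16.3 and 18.5 CPM in resistant 1 and 70.5, 48.4 and 70.8 CPM in resistant 2, against 19.8, 11.98 and 14.5 CPM in vehicle. Resistant 2 lay above both other groups, while resistant 1 overlapped vehicle. The log2 fold change against vehicle was 2.02 ± 0.21 in resistant 2 (adjusted p = 6.5134e-07) and 0.32 ± 0.21 in resistant 1, which was not called (adjusted p = 0.175525). With the replicate number as a block, resistant 1 was called at 0.33 (adjusted p = 0.024693), and without vehicle replicate 1 of batch 2 it was called at 0.55 (adjusted p = 0.0296502). CDKN1A shares exon sequence with DINOL on the opposite strand, which had at most 14 counts in the 3 libraries of any group, and the sources used here do not give the strand setting of the counting.

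GADD45A, a stress protein that binds the sliding clamp of DNA replication, was 97.6, 99.2 and 96.9 CPM in resistant 1 and 7.27, 7.56 and 6.72 CPM in vehicle of batch 1. GADD45A in batch 2 was 95.3, 80.4 and 83.8 CPM in resistant 1 and 169, 130 and 189 CPM in resistant 2, against 5.60, 4.90 and 5.28 CPM in vehicle. Its resistant libraries all lay far above every vehicle library, and it rose by 3.71 ± 0.07, 4.01 ± 0.16 and 4.94 ± 0.16 on the log2 scale (adjusted p = 1.2549e-25, 9.2361e-12 and 1.4696e-12). CCNG1, a cyclin-like protein that recruits a phosphatase to MDM2, was 365, 343 and 367 CPM in resistant 1 and 153, 145 and 147 CPM in vehicle of batch 1. CCNG1 in batch 2 was 949, 718 and 1072 CPM in resistant 1 and 547, 615 and 498 CPM in resistant 2, against 289, 316 and 336 CPM in vehicle. No resistant library overlapped vehicle of its batch, and the log2 fold changes were 1.22 ± 0.05, 1.52 ± 0.15 and 0.81 ± 0.14 (adjusted p = 3.6273e-19, 2.2159e-07 and 1.2323e-04). Its relative CCNG2, which is also driven by FOXO factors, went the other way. It was 7.45, 6.74 and 7.67 CPM in resistant 1 and 44.5, 40.9 and 41.5 CPM in vehicle of batch 1. CCNG2 in batch 2 was 25.9, 19.6 and 26.1 CPM in resistant 1 and 13.8, 15.0 and 15.2 CPM in resistant 2, against 51.9, 64.5 and 66.5 CPM in vehicle. CCNG2 fell in all 3 comparisons without overlap, by −2.59 ± 0.09, −1.38 ± 0.14 and −2.07 ± 0.15 on the log2 scale (adjusted p = 2.1263e-20, 5.7670e-07 and 7.5740e-09).

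PLK2, a polo-like kinase whose expression p53 raises, was all but missing from the resistant libraries. It had 0.0466, 0 and 0 CPM in resistant 1 of batch 1, where the group held 1 count, and 4.57, 4.48 and 4.40 CPM in vehicle. It had 0 counts in resistant 1 of batch 2 and 0.0229, 0 and 0.0231 CPM in resistant 2, against 2.68, 3.07 and 2.72 CPM in vehicle. Vehicle was higher by a ratio of 250.7 in batch 1 (exact 95% counting interval 44.6 to 9940), at least 104-fold against resistant 1 in batch 2, taken against 3 counts over the 3 libraries, and by a ratio of 180 against resistant 2 (49.3 to 1490). These intervals and bounds cover counting error only. Adjusted p-values of PLK2 were 7.2154e-16, 5.6716e-08 and 6.7321e-08. PLK3, another polo-like kinase that answers to stress, averaged 5.32 ± 0.650 CPM in resistant 1 and 4.65 ± 0.564 CPM in vehicle of batch 1 and was not called (log2 0.16, adjusted p = 0.272449). PLK3 in batch 2 averaged 7.46 ± 0.431 CPM in resistant 1 and 7.16 ± 0.902 CPM in resistant 2, against 2.06 ± 0.483 CPM in vehicle (SD, n = 3 each), and rose by 1.83 and 1.78. BTG2, an antiproliferative partner of the deadenylase complex, rose in all 3 comparisons, by 0.62, 1.14 and 1.14.

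Of the 4 feedback genes, 3 were called lower and 1 higher in resistant 1 of batch 1 and of batch 2. In resistant 2, 2 were lower, 1 higher and 1 not called. Over all genes, 42.1%, 35.8% and 35.9% were lower in these comparisons, and 44.0%, 39.9% and 40.2% higher. MDM2, on chromosome 12 from 68808177 to 68845544, read 139, 128 and 139 CPM in resistant 1 and 224, 218 and 209.6 CPM in vehicle of batch 1, without overlap and lower by −0.74 ± 0.05 on the log2 scale (adjusted p = 4.8081e-13). MDM2 in batch 2 read 171, 205.5 and 184.5 CPM in resistant 1 and 179, 172 and 198 CPM in resistant 2, against 191, 252 and 254 CPM in vehicle. Vehicle replicate 1 overlapped the resistant libraries there, and the log2 fold changes were −0.34 ± 0.13 and −0.36 ± 0.13 (adjusted p = 0.0244528 and 0.0180221). The call of resistant 1 was lost without its replicate 1 or 3 or without vehicle replicate 2 or 3 (adjusted p = 0.0972259, 0.0761214, 0.106297 and 0.121518). That of resistant 2 was lost without its replicate 1 or vehicle replicate 2 or 3 (adjusted p = 0.0514307, 0.0822615 and 0.0942877). MDM4, the relative of MDM2 that masks the activation domain of p53, fell by −1.04 and −0.58 in resistant 1 of batch 1 and batch 2, and stood at −0.18 in resistant 2, which was not called (adjusted p = 0.188694). PPM1D, the phosphatase WIP1 that switches p53 signalling off, fell by −0.58, −0.64 and −0.65. FBXO22, an F-box protein of a ubiquitin ligase that acts on p53, went the other way, with log2 fold changes of 0.70, 0.28 and 0.34. Its call in resistant 1 of batch 2 was lost without resistant 1 replicate 2 or 3 or vehicle replicate 3 (adjusted p = 0.0822229, 0.0817991 and 0.10154), and that in resistant 2 without vehicle replicate 3 (adjusted p = 0.0502373).

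Of the 4 DNA repair genes, XPC and POLH were higher and DDB2 and RRM2B lower in all 3 comparisons of resistant with vehicle. Over all genes, 31.0% were higher and 29.8% lower in all 3. DDB2, the damage sensor of nucleotide excision repair that recognises ultraviolet lesions, lies on chromosome 11 from 47214465 to 47239217. It read 7.501, 6.84 and 7.93 CPM in resistant 1 and 51.8, 56.9 and 53.5 CPM in vehicle of batch 1. DDB2 in batch 2 read 9.13, 9.40 and 8.47 CPM in resistant 1 and 9.44, 10.2 and 10.7 CPM in resistant 2, against 21.1, 25.3 and 21.5 CPM in vehicle. It was lower in every resistant library, by −2.92 ± 0.08, −1.35 ± 0.14 and −1.18 ± 0.14 (adjusted p = 1.7805e-22, 5.4350e-07 and 2.1374e-06). XPC, which acts after DDB2 in the same pathway, read 96.3, 91.1 and 94.4 CPM in resistant 1 and 52.6, 56.3 and 59.5 CPM in vehicle of batch 1. XPC in batch 2 read 100.2, 114 and 99.7 CPM in resistant 1 and 131, 120 and 101 CPM in resistant 2, against 52.5, 46.8 and 46.1 CPM in vehicle. XPC was higher in every resistant library, by 0.70 ± 0.06, 1.09 ± 0.12 and 1.26 ± 0.12 (adjusted p = 1.8064e-11, 1.0254e-06 and 2.0809e-07). POLH, the polymerase that copies past ultraviolet damage, rose by 0.56, 1.23 and 1.18. RRM2B, the ribonucleotide reductase subunit that supplies nucleotides for repair, fell by −0.84, −0.61 and −0.56.

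The genes of metabolism and mitochondria went both ways. CMBL, a hydrolase of the liver and other tissues, lies on chromosome 5 from 10275875 to 10307902. It read 376, 352 and 359 CPM in resistant 1 and 3.11, 3.74 and 3.67 CPM in vehicle of batch 1. CMBL in batch 2 read 543, 487 and 660 CPM in resistant 1 and 660, 753 and 641 CPM in resistant 2, against 2.17, 3.07 and 2.72 CPM in vehicle. The groups lay far apart, and it rose by 6.64 ± 0.08, 7.71 ± 0.19 and 8.0 ± 0.19 (adjusted p = 2.2309e-30, 9.3795e-14 and 7.3393e-14). FDXR, the reductase that passes electrons to ferredoxin in mitochondria, read 78.2, 89.8 and 79.0 CPM in resistant 1 and 26.9, 27.3 and 27.6 CPM in vehicle of batch 1. FDXR in batch 2 read 62.4, 82.2 and 73.3 CPM in resistant 1 and 55.0, 65.1 and 54.5 CPM in resistant 2, against 11.3, 10.2 and 9.70 CPM in vehicle. FDXR also rose without overlap, by 1.54 ± 0.07, 2.77 ± 0.14 and 2.47 ± 0.14 (adjusted p = 1.2257e-17, 1.1511e-10 and 3.9110e-10).

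TIGAR, a phosphatase that slows glycolysis and lies on chromosome 12 from 4307763 to 4360028, went far the other way. It read 0.792, 0.783 and 0.721 CPM in resistant 1 and 16.1, 17.7 and 16.9 CPM in vehicle of batch 1. TIGAR in batch 2 read 0.366, 0.247 and 0.322 CPM in resistant 1 and 1.46, 0.617 and 1.23 CPM in resistant 2, against 22.8, 20 and 23.3 CPM in vehicle. It fell by −4.49 ± 0.14, −6.14 ± 0.31 and −4.32 ± 0.26 (adjusted p = 7.1244e-21, 1.3485e-10 and 1.1376e-09). SESN1, a sestrin that restrains mTORC1, read 26.7, 25.0 and 25.2 CPM in resistant 1 and 57.5, 51.5 and 53.3 CPM in vehicle of batch 1. SESN1 in batch 2 read 28.4, 31.2 and 30.2 CPM in resistant 1 and 25.5, 29.0 and 25.4 CPM in resistant 2, against 49.5, 51.9 and 57.7 CPM in vehicle. SESN1 was lower in every resistant library, by −1.13 ± 0.06, −0.85 ± 0.12 and −1.01 ± 0.12 (adjusted p = 4.1248e-15, 9.1719e-06 and 1.5780e-06). SPATA18, known as Mieap and involved in mitochondrial quality control, had 0 counts in all 9 resistant libraries. Vehicle had 0.351, 0.308 and 0.489 CPM in batch 1 and 0.187, 0.172 and 0.0664 CPM in batch 2. SPATA18 was thus at least 6.94-fold lower in resistant 1 of batch 1 (adjusted p = 2.9950e-05), and in batch 2, where it was not tested, at least 5.48-fold lower in resistant 1 and at least 6.30-fold lower in resistant 2.

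TP53INP1, a protein that links p53 to autophagy, read 12.4, 13.1 and 14.03 CPM in resistant 1 and 15.6, 13.5 and 13.3 CPM in vehicle of batch 1, overlapping and not called (log2 −0.15 ± 0.10, adjusted p = 0.158685). With K562 in the fit it was called at −0.23 (adjusted p = 0.040047). TP53INP1 in batch 2 read 37.8, 31.5 and 39.5 CPM in resistant 1 and 30.4, 32.7 and 33.5 CPM in resistant 2, against 20.5, 17.1 and 21.99 CPM in vehicle, and rose by 0.84 ± 0.13 and 0.68 ± 0.13 (adjusted p = 4.7280e-05 and 3.1689e-04). TP53I3, a quinone oxidoreductase that p53 induces through a microsatellite, fell by −0.68 in resistant 1 of batch 1, stood at 0.28 in resistant 1 of batch 2, which was not called, and rose by 0.67 in resistant 2. The call in resistant 2 was lost without its replicate 1 (adjusted p = 0.127491) or without vehicle replicate 1 (adjusted p = 0.0611382).

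Genes of cell death, growth and other functions held the other near-complete losses. PHLDA3, a repressor of AKT signalling on chromosome 1 from 201464278 to 201469237, had 0, 0.0522 and 0 CPM in resistant 1 and 18.2, 18.3 and 15.2 CPM in vehicle of batch 1. PHLDA3 in batch 2 had 0 counts in resistant 1 and 0, 0 and 0.0462 CPM in resistant 2, against 8.35, 5.30 and 5.35 CPM in vehicle. Vehicle was higher by a ratio of 972 in batch 1 (counting interval 174 to 38416), at least 241-fold against resistant 1 of batch 2 and by a ratio of 416 against resistant 2 (115 to 3442), with adjusted p = 3.3944e-21, 2.4269e-08 and 2.5011e-08. CDIP1, a pro-apoptotic protein of endosomes and lysosomes on chromosome 16 from 4510669 to 4538828, had 0.0932, 0 and 0 CPM in resistant 1 and 44.8, 45.2 and 46.0 CPM in vehicle of batch 1. CDIP1 in batch 2 had 0 counts in resistant 1 and 0, 0 and 0.0693 CPM in resistant 2, against 38.3, 46.0 and 38.1 CPM in vehicle. The ratio of vehicle to resistant 1 was 1265 in batch 1 (counting interval 350 to 10451) and at least 1505 in batch 2, and that of vehicle to resistant 2 was 1731 (592 to 8398), with adjusted p = 2.8378e-25, 5.7293e-11 and 5.4158e-11.

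GDF15, a secreted stress cytokine that other stress pathways also raise, lies on chromosome 19 from 18374731 to 18389176. It read 31.9, 37.3 and 32.2 CPM in resistant 1 and 1.51, 0.879 and 1.16 CPM in vehicle of batch 1. GDF15 in batch 2 read 157, 52.6 and 137 CPM in resistant 1 and 189, 82.3 and 166 CPM in resistant 2, against 0.909, 0.0573 and 0.266 CPM in vehicle. All resistant libraries lay far above vehicle although replicate 2 was the lowest in each group of batch 2, and GDF15 rose by 4.80 ± 0.16, 7.99 ± 0.74 and 8.33 ± 0.75 (adjusted p = 6.7760e-20, 6.6362e-06 and 4.9558e-06). ZMAT3, an RNA-binding protein that p53 uses to shape splicing, barely moved. It read 42.4, 37.7 and 42.3 CPM in resistant 1 and 35.4, 34.6 and 33.5 CPM in vehicle of batch 1, and was called higher there by 0.19 ± 0.07 (adjusted p = 0.012375). ZMAT3 in batch 2 read 61.7, 52.7 and 61.7 CPM in resistant 1 and 62.9, 48.8 and 56.8 CPM in resistant 2, against 52.7, 46.5 and 58.5 CPM in vehicle. The groups overlapped there and ZMAT3 was not called (log2 0.13 and 0.08, adjusted p = 0.36454 and 0.577907). The call of batch 1 was lost without resistant 1 replicate 1 or 3 or vehicle replicate 2 or 3 (adjusted p = 0.0515914 to 0.079297) and with K562 in the fit (adjusted p = 0.0943368).

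The other genes of this block moved by 1.17 or less. PIDD1, the scaffold of the PIDDosome, rose by 0.48, 1.17 and 0.96, and EI24, a protein of the endoplasmic reticulum that takes part in autophagy, rose by 0.85, 0.71 and 0.83 in resistant 1 of batch 1, resistant 1 of batch 2 and resistant 2. AEN, a nuclease that p53 induces in apoptosis, rose by 0.45 in resistant 1 of batch 1 and by 0.75 in resistant 2 and stood at 0.06 in resistant 1 of batch 2, which was not called. RPS27L, a ribosomal protein paralogue that p53 induces, fell by −0.85 in batch 1 and stood at −0.22 and −0.24 in batch 2, neither called. It became called in resistant 2 without resistant 2 replicate 2 (−0.35, adjusted p = 0.0387499). TRIAP1, a small mitochondrial protein that blocks apoptosis, rose by 0.30 in batch 1, fell by −0.47 in resistant 1 of batch 2 and stood at 0.11 in resistant 2, not called. Its fall in resistant 1 of batch 2 was lost without resistant 1 replicate 1 or 3 (adjusted p = 0.0517265 and 0.0577298).

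SUSD6, a membrane protein induced by DNA damage, rose by 0.48 and 0.35 in resistant 1 of batch 1 and batch 2 and fell by −0.38 in resistant 2. Its batch 2 call in resistant 1 was lost without resistant 1 replicate 2 or vehicle replicate 2 (adjusted p = 0.0659178 and 0.0762553), and the call in resistant 2 without resistant 2 replicate 1 or 3 or vehicle replicate 1 (adjusted p = 0.0576291, 0.0594248 and 0.0562323). ANKRA2, an ankyrin repeat protein, stood at −0.09 in batch 1, not called, and rose by 0.43 and 0.47 in batch 2. The first of these was lost without vehicle replicate 3 (adjusted p = 0.0560461). Of the 33 genes, 7 share exon sequence with another counted gene on the opposite strand, namely ANKRA2 with UTP15, CDKN1A with DINOL, MDM2 with CPM, PIDD1 with PANO1, POLH with GTPBP2, TP53I3 with FAM228B and TP53INP1 with NDUFAF6, so part of their counts could belong to the partner.

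**Figure D3:**
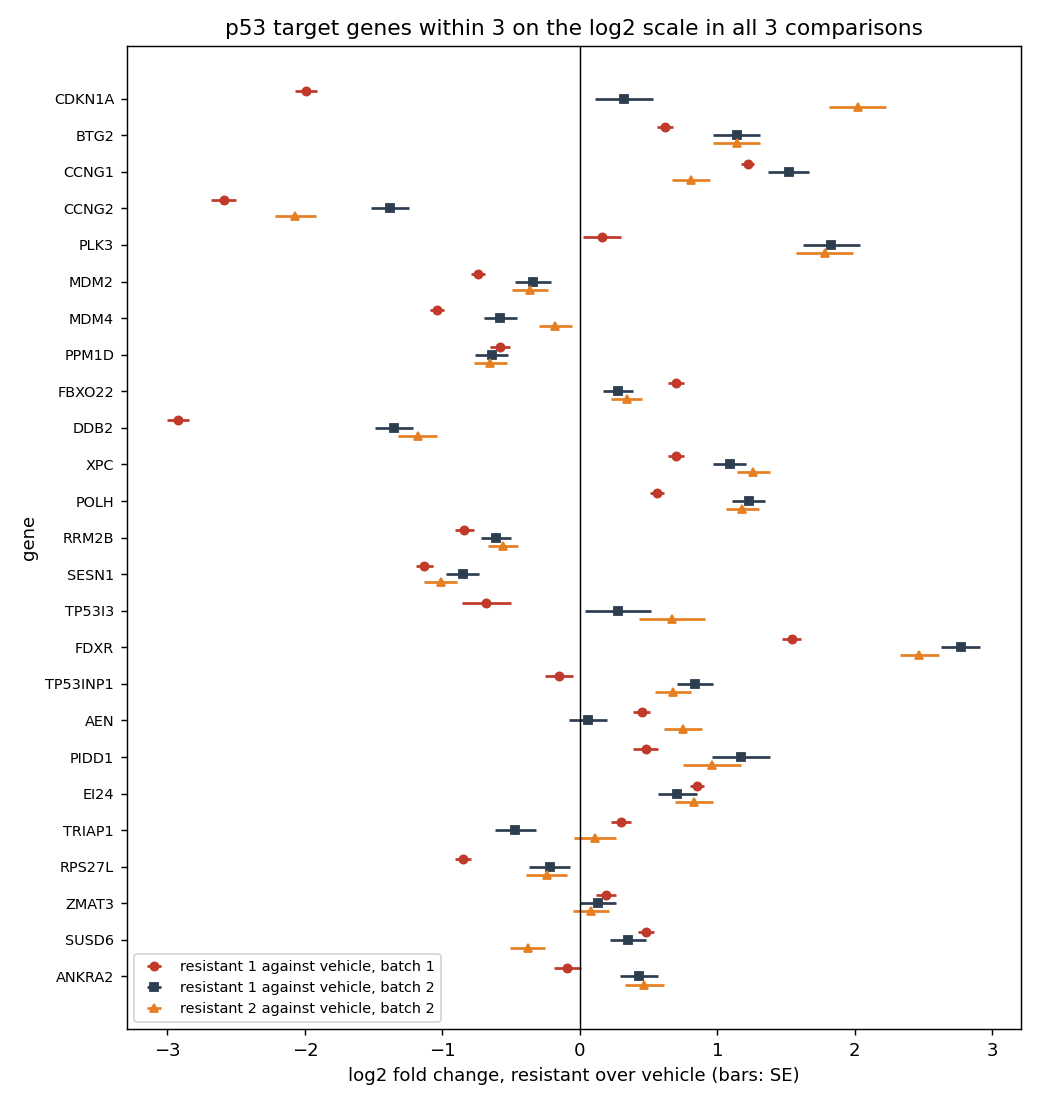
Log2 fold change of resistant over vehicle, with SE, for the 25 p53 target genes that stayed within 3 in all comparisons, in resistant 1 of batch 1 (red circles), resistant 1 of batch 2 (dark squares) and resistant 2 of batch 2 (orange triangles). CDKN1A runs across 0, at −1.99, 0.32 and 2.02, while FDXR lies to the right and CCNG2 and DDB2 lie to the left in all 3. Both batch 2 comparisons share their vehicle libraries.

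Resistant 2 was set against resistant 1 in batch 2 to ask whether the biological replicates of resistance differed. Of 32 genes tested, 6 were called higher and 3 lower, with a background of 12.4% and 11.9%, and 23 were not called. CDKN1A was higher in resistant 2 by 1.71 ± 0.21 (adjusted p = 6.0351e-05). TIGAR was higher by 1.82 ± 0.33 (adjusted p = 0.00150086), GADD45A by 0.92 ± 0.14 (adjusted p = 2.6953e-04) and AEN by 0.69 ± 0.14 (adjusted p = 0.00264246). TRIAP1 at 0.58 and MDM4 at 0.40 were called too. TRIAP1 lost its call without resistant 1 replicate 1 or 3 or resistant 2 replicate 1 (adjusted p = 0.0625212, 0.0677199 and 0.0761165), and MDM4 without resistant 1 replicate 3 or resistant 2 replicate 3 (adjusted p = 0.15609 and 0.135991) and when only the groups compared were fitted (adjusted p = 0.0672944). SUSD6, CCNG1 and CCNG2 were lower, by −0.73, −0.71 and −0.69. FDXR stood at −0.31 and was not called (adjusted p = 0.0890035), and was called at −0.39 without resistant 2 replicate 2 (adjusted p = 0.0343012).

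K562 was compared with OCI-AML3 parental cells to show how the untreated lines differ. Of the 33 genes, 19 were lower in K562, 9 higher and 5 not called, with a background of 42.5% lower and 42.6% higher among 13883 genes tested. The median log2 fold change was −0.63, and 0.00 over all genes. CDKN1A read 6.99, 6.37 and 7.66 CPM in K562 and 56.4, 56.9 and 58.5 CPM in OCI-AML3 parental, without overlap, and was lower by −3.14 ± 0.08 (adjusted p = 1.0380e-18). DDB2 read 5.39, 4.29 and 4.90 CPM in K562 and 64.0, 63.9 and 68.9 CPM in OCI-AML3 parental and was lower by −3.88 ± 0.09 (adjusted p = 1.2328e-19). TIGAR was lower by −4.40 and CCNG2 by −2.70. RPS27L, SESN1 and RRM2B were lower by −1.45, −1.43 and −1.25, and the feedback genes MDM4, PPM1D and MDM2 by −1.12, −0.92 and −0.85. TP53I3 and TP53INP1 were each lower by −0.97, BTG2 by −0.63, ANKRA2 by −0.43 and FDXR by −0.18. PHLDA3, PLK2, SPATA18 and CDIP1 were at or near 0 in K562. The ratio of OCI-AML3 parental to K562 was 1675 for PHLDA3 (counting interval 300.3 to 66216) and 1068 for CDIP1 (295 to 8825), at least 137-fold for PLK2 and at least 28.3-fold for SPATA18.

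CMBL, GDF15 and GADD45A were the genes that stood far higher in K562, by 5.71 ± 0.08, 4.71 ± 0.21 and 3.21 ± 0.08. CMBL read 262, 292 and 280 CPM in K562 and 5.09, 5.41 and 4.11 CPM in OCI-AML3 parental. EI24, XPC, CCNG1 and FBXO22 were higher by 0.79, 0.53, 0.50 and 0.32. TRIAP1 and SUSD6 were called at 0.16 and 0.15. TRIAP1 lost its call without OCI-AML3 parental replicate 1 or 2 or K562 replicate 2 or 3 (adjusted p = 0.0595079 to 0.187987) and in DESeq2 (adjusted p = 0.0974932). SUSD6 lost its call without OCI-AML3 parental replicate 1 or 3 or any K562 replicate (adjusted p = 0.0621106 to 0.202149), with RLE size factors (adjusted p = 0.0669608), without the low-count filter (adjusted p = 0.0646678) and in DESeq2 (adjusted p = 0.154842). FDXR lost its call without OCI-AML3 parental replicate 3 (adjusted p = 0.122645) or K562 replicate 2 (adjusted p = 0.0929394). ZMAT3, POLH, AEN, PLK3 and PIDD1 were not called, with log2 fold changes of 0.03, 0.06, 0.08, 0.06 and −0.08.

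The K562 comparison and that of resistant 1 with vehicle in batch 1 have no library in common. Of the 26 genes called in both, 24 had the same sign (92.3%), and over all genes 10514 of 10809 did (97.3%). The exceptions were FDXR and BTG2, which were lower in K562 and higher in resistant 1. FDXR read 42.7, 39.0 and 42.8 CPM in K562 and 41.7, 41.0 and 47.2 CPM in OCI-AML3 parental. BTG2 averaged 23.9 ± 1.78 CPM in K562 and 33.98 ± 0.618 CPM in OCI-AML3 parental, and 50.7 ± 2.48 CPM in resistant 1 and 31.9 ± 0.697 CPM in vehicle of batch 1 (SD, n = 3 each).

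**Figure D4:**
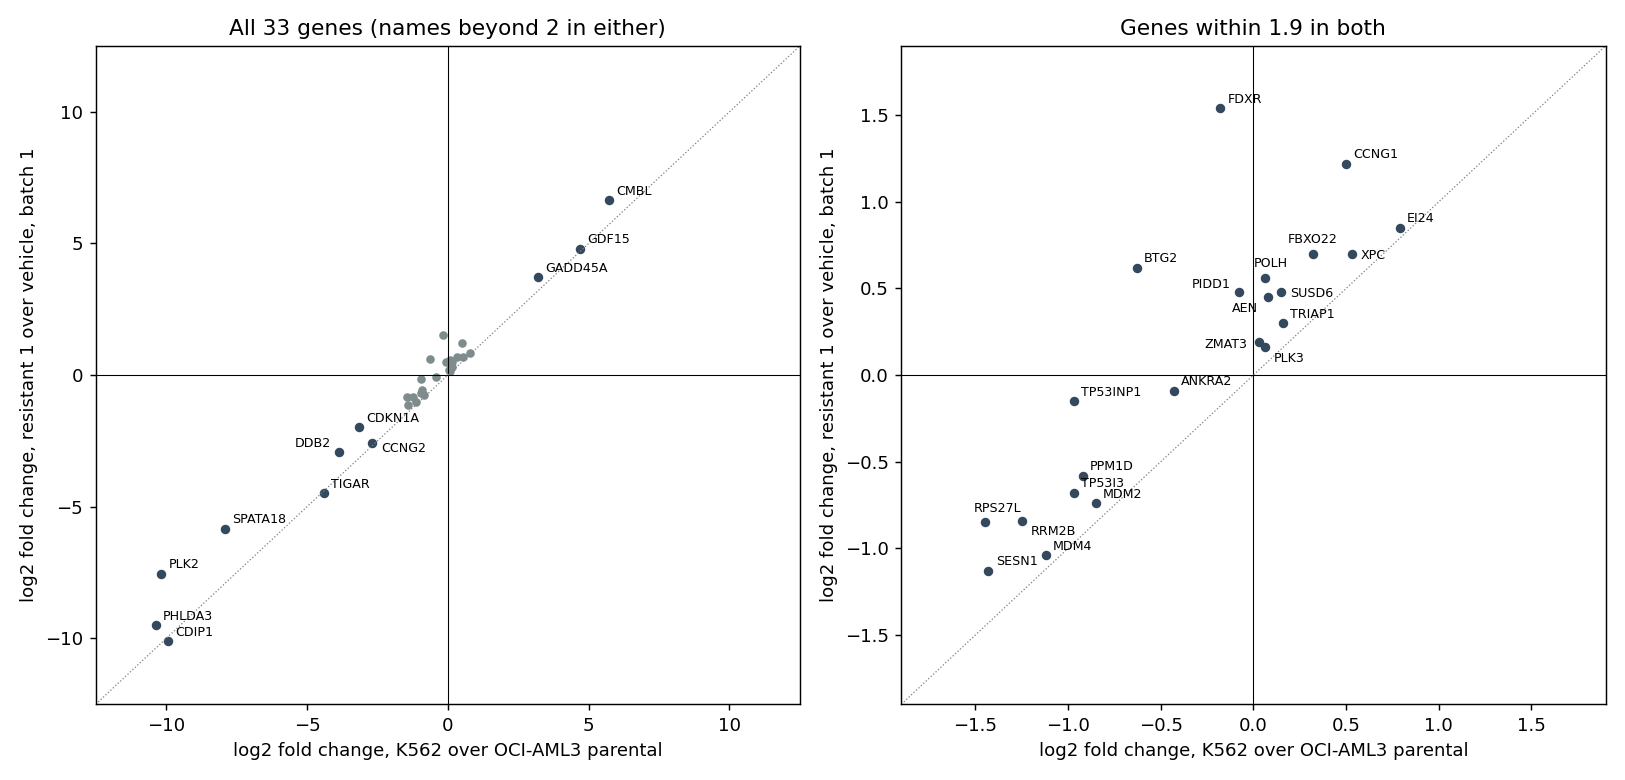
Log2 fold change of resistant 1 over vehicle in batch 1 (y axis) against that of K562 over OCI-AML3 parental (x axis) for the 33 p53 target genes, in full (left) and for those within 1.9 in both (right), with the line of equal change dotted. Most genes lie in the same quadrant on both axes, and FDXR, BTG2 and PIDD1 lie in the upper left. Fitted values of PHLDA3, PLK2, SPATA18 and CDIP1 depend on the prior count, since they had 0 to 2 counts in a group.

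Direct comparison of resistant 1 with K562 in batch 1 was chosen because their profiles were alike. Of 29 genes tested, 12 were higher in resistant 1, 7 lower and 10 not called, with a background of 31.3% higher and 28.5% lower. PHLDA3, PLK2, SPATA18 and CDIP1 were too low in both groups to be tested. CCNG2 was higher in resistant 1 by 1.13, BTG2 by 1.11, FDXR by 1.02, TP53INP1 by 0.90, CCNG1 by 0.88 and GDF15 by 0.86. DDB2 was higher by 0.64, at 7.43 ± 0.551 CPM in resistant 1 and 4.86 ± 0.551 CPM in K562, and CDKN1A by 0.57, at 10.3 ± 0.447 CPM in resistant 1 and 7.01 ± 0.642 CPM in K562 (SD, n = 3 each). ANKRA2, CMBL, SUSD6 and GADD45A were higher by 0.57, 0.41, 0.35 and 0.20. TIGAR, PLK3, TRIAP1, MDM2, AEN, EI24 and RPS27L were lower, by −0.83, −0.67, −0.45, −0.45, −0.39, −0.23 and −0.13. TIGAR lost its call without resistant 1 replicate 3 (adjusted p = 0.0544299), without K562 replicate 2 (adjusted p = 0.129725) and in DESeq2 (adjusted p = 0.108426). RPS27L lost its call without any 1 of the resistant 1 replicates or K562 replicate 1 or 3 (adjusted p = 0.0664617 to 0.115616), without the low-count filter (adjusted p = 0.0575175) and in DESeq2 (adjusted p = 0.0822894). SESN1 was not called at 0.16 and became called at 0.19 without K562 replicate 2 (adjusted p = 0.045585).

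Vehicle was compared with parental OCI-AML3 cells in batch 1 to show how cells entered as DMSO stood against untreated ones, and here no library labelled resistant is compared. Most of the genes went one way: 22 of the 33 were lower in vehicle, 3 higher and 8 not called, with a background of 18.3% lower and 18.7% higher among 14505 genes tested. The median log2 fold change was −0.34, and 0.00 over all genes, and the median size was 0.49 against 0.19. When the libraries of these groups alone were fitted, without resistant 1, 21 genes were lower and 3 higher. The erythroid markers summed to 26.6 to 28.6 CPM in vehicle and 17.9 to 20.9 CPM in parental, and the myeloid ones to 2188 to 2241 CPM in vehicle and 2405 to 2458 CPM in parental. Their part in the shift was not tested. Vehicle and parental libraries also differ in culture with and without DMSO and in whatever else separated them, and these cannot be told apart.

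PHLDA3 read 18.2, 18.3 and 15.2 CPM in vehicle and 33.9, 30.7 and 34.9 CPM in parental and fell by −0.95 ± 0.09 (adjusted p = 1.2289e-09). MDM2 read 224, 218 and 209.6 CPM in vehicle and 328, 318 and 286 CPM in parental and fell by −0.53 ± 0.05 (adjusted p = 4.3972e-09). CDKN1A read 36.1, 39.4 and 42.9 CPM in vehicle and 56.4, 56.9 and 58.5 CPM in parental and fell by −0.56 ± 0.07 (adjusted p = 1.8886e-07). The vehicle libraries lay below the parental ones without overlap in all 3 genes. FDXR read 26.9, 27.3 and 27.6 CPM in vehicle and 41.7, 41.0 and 47.2 CPM in parental and fell by −0.68 ± 0.07 (adjusted p = 2.5384e-08). SPATA18, at 22 counts in vehicle and 87 in parental, fell by −2.17 ± 0.33 (adjusted p = 1.3233e-05). The counts by role below stand against 18.3% lower and 18.7% higher over all genes, and the calls of XPC and GADD45A depended on single libraries. By role, all 4 repair genes fell, namely POLH by −0.50, RRM2B by −0.34, DDB2 by −0.30 and XPC by −0.20. Of the 4 feedback genes MDM2, FBXO22 (−0.36) and PPM1D (−0.24) fell and MDM4 stood at 0.00. Of 7 arrest genes, PLK2 (−0.87), PLK3 (−0.74), CDKN1A and GADD45A (−0.27) fell, and CCNG2 and CCNG1 rose.

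Among the genes of metabolism and mitochondria, TIGAR (−0.72), FDXR, TP53I3 (−0.52), CMBL (−0.49) and SPATA18 fell, while SESN1 and TP53INP1 stood at −0.13 and 0.11 and were not called. AEN (−0.74), RPS27L (−0.70), TRIAP1 (−0.57), PIDD1 (−0.50) and EI24 (−0.27) fell with PHLDA3, and ZMAT3, SUSD6, CDIP1 and BTG2 were not called at −0.08, 0.06, 0.08 and −0.11. CCNG2 was the clear exception, at 44.5, 40.9 and 41.5 CPM in vehicle and 21.1, 21.3 and 18.2 CPM in parental, and rose by 1.05 ± 0.08 (adjusted p = 2.0434e-11). CCNG1 rose by 0.19 and ANKRA2 by 0.26. GDF15 stood at 0.81 ± 0.35 with overlap and was not called (adjusted p = 0.0745532). It became called at 1.02 without vehicle replicate 2 (adjusted p = 0.0389088), at 1.27 without parental replicate 3 (adjusted p = 0.00959219), in DESeq2 at 0.83 (adjusted p = 0.0373219) and without the low-count filter at 0.81 (adjusted p = 0.0312438).

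Some of the smaller calls rested on single libraries. GADD45A lost its call without vehicle replicate 1 or 3 or parental replicate 2 (adjusted p = 0.06784, 0.105602 and 0.137231), without the low-count filter (adjusted p = 0.0526849), in DESeq2 (adjusted p = 0.0756082) and with these groups alone in the fit (adjusted p = 0.0568002). XPC lost its call without vehicle replicate 1 or parental replicate 3 (adjusted p = 0.100311 and 0.0718366), and TP53I3 without vehicle replicate 1 (adjusted p = 0.100575). ANKRA2 lost its call without vehicle replicate 1 or 2 or parental replicate 1 or 2 (adjusted p = 0.104348, 0.170789, 0.135453 and 0.114324) and in DESeq2 (adjusted p = 0.0835752). Leaving out each library in turn gave 19 to 22 genes lower.

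**Figure D5:**
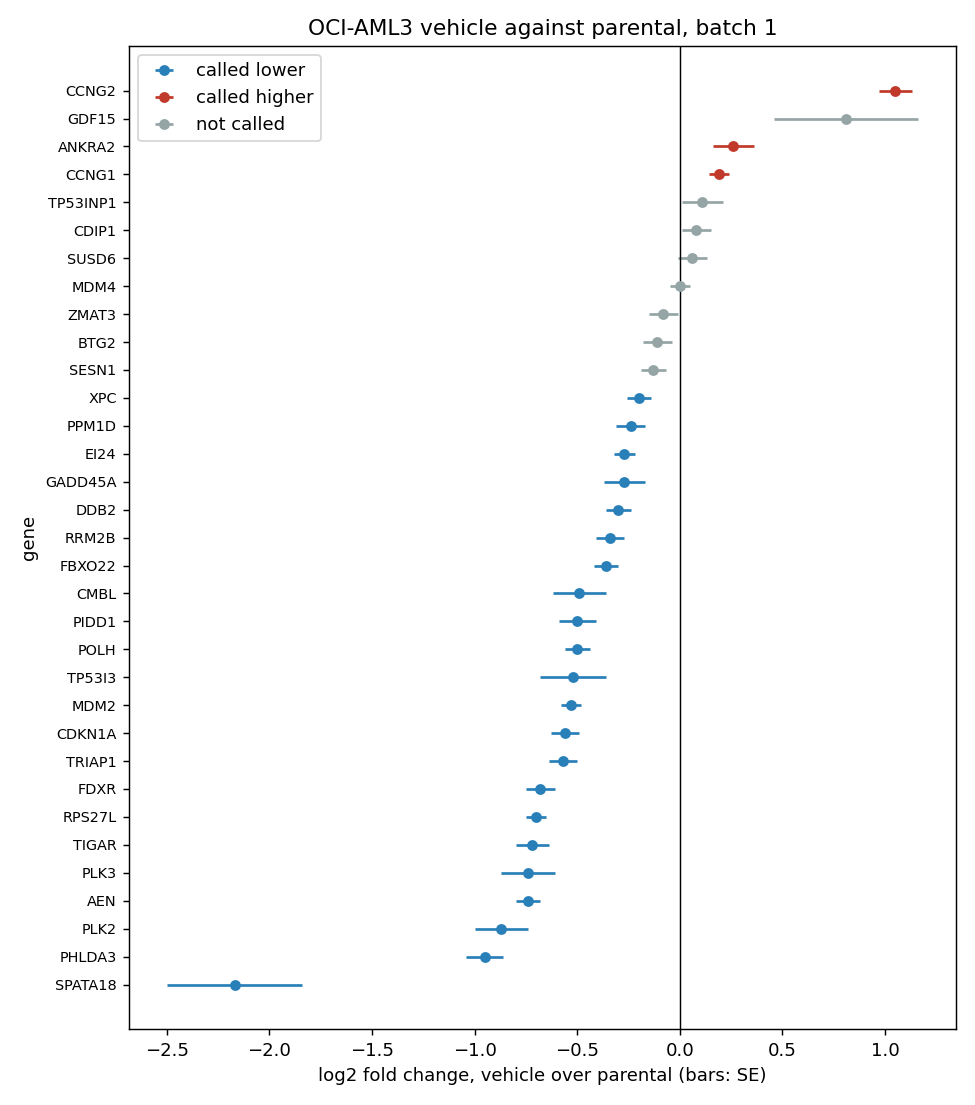
Log2 fold change of vehicle over parental OCI-AML3 in batch 1, with SE, for the 33 p53 target genes, sorted by value and coloured by call. Most points lie left of 0, down to SPATA18 at −2.17, and CCNG2 lies farthest to the right at 1.05.

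The difference of resistant 1 from vehicle was not the same in both batches for many of the target genes. In a fit of vehicle and resistant 1 of both batches with an interaction term, it differed for 19 of 32 genes. It was higher in batch 2 for 15 and lower for 4, with a background of 15.0% and 18.2% among 15209 genes tested, and the median difference was 0.37 on the log2 scale, against −0.02 over all genes. For CDKN1A the difference was 2.29 ± 0.23 (adjusted p = 2.0246e-06), for PLK3 1.65 ± 0.26 (adjusted p = 1.1314e-04), for DDB2 1.54 ± 0.15 (adjusted p = 8.5899e-07) and for FDXR 1.21 ± 0.14 (adjusted p = 7.8532e-06). For TIGAR it was −1.65 ± 0.29 (adjusted p = 3.1907e-04). The levels behind these differences, not tested between batches on their own, were as follows. CDKN1A averaged 19.5 ± 3.88 CPM in resistant 1 of batch 2 and 10.25 ± 0.447 CPM in resistant 1 of batch 1, and 15.4 ± 3.97 CPM in vehicle of batch 2 and 39.5 ± 3.39 CPM in vehicle of batch 1 (SD, n = 3 each, here and in the next sentences). PLK3 averaged 7.46 ± 0.431 and 5.32 ± 0.650 CPM in resistant 1 of batch 2 and batch 1, and 2.06 ± 0.483 and 4.65 ± 0.564 CPM in vehicle of batch 2 and batch 1. Both genes thus had higher means in batch 2 in resistant 1 and lower ones in vehicle. DDB2 averaged 8.998 ± 0.480 and 7.425 ± 0.551 CPM in resistant 1 of batch 2 and batch 1, and 22.6 ± 2.30 CPM in vehicle of batch 2 and 54.0 ± 2.56 CPM in vehicle of batch 1. FDXR averaged 72.6 ± 9.91 and 82.3 ± 6.44 CPM in resistant 1 of batch 2 and batch 1, and 10.4 ± 0.819 CPM in vehicle of batch 2 and 27.3 ± 0.338 CPM in vehicle of batch 1. TIGAR averaged 0.312 ± 0.0600 and 0.766 ± 0.0385 CPM in resistant 1 of batch 2 and batch 1, and 22.02 ± 1.76 and 16.9 ± 0.810 CPM in vehicle of batch 2 and batch 1. Means in vehicle of batch 2 were thus lower for DDB2 and FDXR and higher for TIGAR. Batch and culture cannot be told apart in these levels, which were scaled over the batches together.

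Compared per kilobase of annotated exon, the order of the genes differed between groups. The length used was that of all annotated exons of a gene, joined over its transcripts, such as 8825 bases for RPS27L and 8306 for MDM2. Which transcripts these cells make was not tested, so ranks within a group depend on the annotation. In vehicle of batch 1, CCNG1 at 48.0, EI24 at 38.3, MDM2 at 26.2 and TRIAP1 at 24.4 CPM per kb led the set, and SPATA18 at 0.0769 CPM per kb was the lowest. In resistant 1 of batch 1, CCNG1 at 116, CMBL at 74.2, EI24 at 71.3 and GADD45A at 50.9 CPM per kb led, and MDM2 stood at 16.3 CPM per kb. In K562, EI24 at 85.3, CCNG1 at 64.0, CMBL at 56.9, GADD45A at 45.1 and TRIAP1 at 43.5 CPM per kb led. Over the 7 group means of log2(CPM + 1), the genes most like CDKN1A were TP53I3, DDB2 and RPS27L (Pearson r = 0.79, 0.66 and 0.64), and those most like MDM2 were RPS27L, PLK2 and PHLDA3 (r = 0.91, 0.85 and 0.84). These correlations describe 7 points that share their scaling and 2 lines of cells.

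Other genes of the p53 pathway were listed apart from the 33. Of 17 apoptotic targets tested in resistant 1 against vehicle of batch 1, 4 were called higher and 13 lower, and their median was −1.27, against 44.0% higher, 42.1% lower and a median of 0.02 over all genes. In batch 2 the same 17 were 4 higher and 12 lower in resistant 1 with a median of −0.92, and 5 higher, 9 lower and 3 not called in resistant 2 with a median of −0.47, against 0.07 over all genes in each. The shares over all genes in batch 2 were 39.9% higher and 35.8% lower in resistant 1, and 40.2% and 35.9% in resistant 2. CASP1, the inflammatory caspase, averaged 0.0877 ± 0.01999 CPM in resistant 1 and 40.5 ± 1.99 CPM in vehicle, PERP, a desmosomal membrane protein, averaged 0.976 ± 0.140 CPM in resistant 1 and 16.9 ± 0.854 CPM in vehicle (SD, n = 3 each), and TNFRSF10C, a decoy receptor of TRAIL, had 1 count in resistant 1 and 153 in vehicle, a ratio of vehicle to resistant 1 of 145 (counting interval 25.6 to 5755). IER3, AIFM2 and TNFRSF10A were higher, by 3.03, 1.45 and 1.28. In vehicle against parental, 4 of these 17 were higher, 7 lower and 6 not called (18.7% higher and 18.3% lower over all genes). Among 37 other targets tested in batch 1, 13 were higher and 20 lower in resistant 1, with a median of −0.30 and the same shares over all genes of 44.0% and 42.1%. The lean towards lower calls did not hold in batch 2, where 39 were tested. There 17 were higher and 15 lower in resistant 1 with a median of 0.41, and 15 were higher and 15 lower in resistant 2 with a median of −0.27. These counts were near the batch 2 shares over all genes, 39.9% higher and 35.8% lower in resistant 1 and 40.2% and 35.9% in resistant 2. In batch 1, MIR34AHG, the host transcript of miR-34a, had 0 counts in resistant 1 and 378 in vehicle (at least 119-fold lower in resistant 1), and TRIM22 and CYFIP2 fell by −8.31 and −3.55. FHL2 and CSF1 rose by 8.15 and 3.45, and SFN, which encodes the 14-3-3 sigma protein, had 115 counts in resistant 1 and 0 in vehicle and was at least 40.5-fold higher. In vehicle against parental, 7 of the 37 were higher, 8 lower and 22 not called (18.7% higher and 18.3% lower over all genes).

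Of 28 family members and regulators of p53, 12 were higher and 11 lower in resistant 1 of batch 1 with a median of 0.08, near the 44.0% and 42.1% over all genes. In batch 2, 8 were higher and 9 lower in resistant 1, and 9 were higher and 9 lower in resistant 2, with medians of −0.10 and −0.04. Over all genes there, 39.9% were higher and 35.8% lower in resistant 1, and 40.2% and 35.9% in resistant 2. In batch 1, CDKN2A, whose alternative product ARF restrains MDM2, had 0 counts in resistant 1 and 253 in vehicle (at least 79.8-fold lower in resistant 1), and SETD7 and TP63 fell by −2.25 and −1.95. PPP1R13L, KMT5A and CHEK1 rose by 2.17, 1.63 and 0.84. In vehicle against parental, 6 were higher, 7 lower and 15 not called (18.7% higher and 18.3% lower over all genes). Genes that p53 is known to repress through the DREAM complex, which drive mitosis and replication, were 11 higher and 5 lower of 18 in resistant 1 of batch 1, with a median of 0.32, against 44.0% higher, 42.1% lower and a median of 0.02 over all genes. In batch 2 they were 10 higher and 2 lower in resistant 1 with a median of 0.43, and 5 higher, 2 lower and 11 not called in resistant 2 with a median of 0.28. The shares over all genes were 39.9% higher and 35.8% lower in resistant 1, and 40.2% and 35.9% in resistant 2. The median over all genes was 0.07 in each. In batch 1, CDK1, AURKA and CDC25C rose by 1.32, 1.05 and 0.95, and FOXM1, MCM5 and CDC20 fell by −1.12, −0.61 and −0.22. In vehicle against parental, 11 of these 18 were lower and 7 not called, with a median of −0.18, against 18.3% lower, 18.7% higher and a median of 0.00 over all genes.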

How the data were processed

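The authors deposited raw counts per gene symbol, 1 table per batch, as whole numbers without normalization. The submitters' processing notes name hg38 as the build and DESeq2 1.22.1 as a tool, and per the labels' protocols the mRNA libraries were strand-specific. No aligner version, annotation or strand setting is given in the sources used here. Depth was 14066821 to 21091646 counts per library in batch 1 and 30719771 to 51262668 in batch 2.

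Models were fitted in R 4.3.3 by edgeR 4.0.16 after TMM scaling and filterByExpr, with robust quasi-likelihood F tests (two-sided) of group means and Benjamini-Hochberg adjustment over all genes tested, and genes were called at an adjusted p under 0.05. Batch 1 (its 3 OCI-AML3 groups) and batch 2 (all 3 groups) had 1 fit each. K562 with OCI-AML3 parental, resistant 1 with K562, and the batch interaction (12 libraries) had fits of their own. CPM in the text were scaled over the 21 libraries, and fold changes come from the fits. Where a group had 0 counts, bounds were set against 3 counts over its libraries, and with 1 to 3 counts ratios have exact 95% intervals. The fits were tested on simulated data. The 33 genes, the other gene lists (apoptotic targets, other targets, regulators, genes bound by DREAM, and cell markers) and the rule for values given in full were chosen with earlier results of these data known. That rule took fixed genes, and genes called alike in all 3 comparisons of resistant with vehicle with a log2 fold change of 1 or more and no overlap, and from each other list up to 3 of the greatest rises and falls. Of the listed genes, 3 without a row under their symbol were left out, and 1 listed gene is not reported here.

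Replicate numbers were checked for pairing. Same-numbered libraries deviated together in resistant 1 and vehicle of batch 2 (correlations 0.21 to 0.27) and in resistant 2 and resistant 1 (0.16 to 0.39). A comparison was taken as paired where every correlation was over 0.1. Resistant 2 and vehicle of batch 2 fell just short, at 0.08 to 0.21, and each other comparison had a negative correlation. In the 2 comparisons taken as paired, the block changed the call of CDKN1A alone. Replicates of a group differed by more than counting noise, which would give a chi-square per degree of freedom near 1. Pairs of replicates gave 1.87 to 7.74 in batch 1 and 22.3 to 92.6 in batch 2. This value also grows with depth, which was greater in batch 2. Calls in batch 1 and batch 2 thus rest on unlike replicate spread. Alternatives were RLE size factors, no low-count filter, DESeq2 1.42.0, a replicate block, other groups in the fit and leaving out each library. Gene positions came from GENCODE on hg38.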

Additional observations from a re-analysis of the deposited data

Results flagged for a closer look

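The difference of resistant 1 from vehicle was not the same in both batches for 19 of the 32 genes tested. The interaction test was used (edgeR, adjusted p under 0.05), and values are given as batch 2 minus batch 1 on the log2 scale. Over all genes, 15.0% were called above 0 and 18.2% below 0. The difference was above 0 for CDKN1A at 2.29, PLK3 at 1.65, DDB2 at 1.54, FDXR at 1.21, CCNG2 at 1.19 and CMBL at 1.06. It was also above 0 for TP53INP1 at 0.97, TP53I3 at 0.96, PIDD1 at 0.66, POLH at 0.65, RPS27L at 0.61, ANKRA2 at 0.50, MDM4 at 0.44, MDM2 at 0.38 and XPC at 0.37. It was below 0 for AEN at −0.41, FBXO22 at −0.43, TRIAP1 at −0.80 and TIGAR at −1.65. Several of the smaller differences rest on single libraries. That of MDM2 lost its call without any 1 of 9 of the 12 libraries (adjusted p = 0.061277 to 0.119159), that of TP53I3 without vehicle replicate 3 of batch 1 (adjusted p = 0.0565839) and that of XPC without the same library (adjusted p = 0.0597536). That of ANKRA2 lost it without any 1 of 5 libraries (adjusted p = 0.0637832 to 0.0860001) and that of PIDD1 without any 1 of 4 (adjusted p = 0.0578176 to 0.0705641). GDF15, at 3.15, missed the threshold (adjusted p = 0.0546976) and passed it without resistant 1 replicate 2 of batch 2 at 3.5 (adjusted p = 0.0012497) or vehicle replicate 1 of batch 2 at 4.66 (adjusted p = 0.0310313), and also with the replicate block at 3.22 (adjusted p = 8.0237e-05) and in DESeq2 at 3.34 (adjusted p = 0.00352683). BTG2, at 0.50, missed it as well (adjusted p = 0.0688269) and passed it with RLE size factors at 0.56 (adjusted p = 0.0467212), with the block at 0.47 (adjusted p = 0.0101842), in DESeq2 at 0.56 (adjusted p = 0.0364308) and without resistant 1 replicate 2 of batch 2 at 0.70 (adjusted p = 1.3977e-04). Without that library GADD45A at 0.33 and CCNG1 at 0.42 passed it too (adjusted p = 0.0466783 and 0.00319671), and SESN1 passed it in DESeq2 at 0.32 (adjusted p = 0.0464931). The cause of these differences was not tested.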

How the results depend on the processing

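The counts of p53 target genes called in each direction stayed within 1.5 times their values under RLE size factors, no low-count filter, DESeq2, the replicate block, other groups in the fit and on leaving out each library, in all 204 recomputed counts. No fold change of a single gene reversed where the gene was called in the main or the alternative fit. Sign changes of genes called in neither were not counted. Of the recomputed values for single genes, 3410 kept their side of the threshold, 93 lost the call and 21 gained it. With the replicate block, resistant 1 against vehicle in batch 2 had 16 genes higher in place of 15, since CDKN1A was called at 0.33 (adjusted p = 0.024693). The block changed no other call in that comparison or in resistant 2 against resistant 1. In comparisons whose numbers did not pair the libraries, the replicate block gave 2 genes higher in place of 3 in vehicle against parental (ANKRA2) and 6 lower in place of 7 in resistant 1 against K562 (RPS27L). In the batch interaction, where the numbers paired the libraries of batch 2 and not of batch 1, the block called 21 genes in place of 19, adding GDF15 and BTG2, and DESeq2 called 22. Leaving out 1 library gave 14 to 15 genes higher in resistant 1 against vehicle of batch 1, 13 to 16 in batch 2, 19 to 22 lower in vehicle against parental, 18 to 19 lower in K562 and 16 to 22 in the interaction. Fits of batch 1 with only the groups compared were chosen after seeing the data. Depth limits PLK2, PHLDA3, SPATA18 and CDIP1, whose folds are bounds or ratios with wide intervals. Resistance and line, and batch and culture, cannot be told apart with these libraries.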
